A study of Homo sapiens with 4 samples.

Results

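Hepatocyte growth factor (HGF), its receptor MET, the related receptor MST1R and the proteases and inhibitors that control HGF activation were followed in A2780s, an established human epithelial ovarian cancer (EOC) cell line. The 9 genes, among 29123 gene names on the array, were HGF, MET, MST1R, ST14, SPINT1, SPINT2, PLAU, PLAUR and TMPRSS15. They were taken as every non-control probe that carries one of these gene names, which gave 13 probes of 41000 and 40 spots of 43376 on each array. The set was chosen by the log2 ratios of HGF, which rose in GALNT3 KO and fell in GALNT3/T6 KO, and TMPRSS15 was known for its rise, so both are described with no test. SPINT1 passed the background filter through the GALNT3/T6 KO arrays alone, where it was high, so it too is given with no test. The other 6 genes were chosen with earlier results known, and their p-values are adjusted over all 27196 genes tested.

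Clones of GALNT3 KO (n = 2) and of GALNT3/T6 KO (n = 2) were set against Ctrl, mock-transfected A2780s cells, each clone on an array of its own. GALNT3 and GALNT6 encode enzymes that add the initial sugar of mucin-type O-glycans to proteins. For GALNT3 KO, the gene was cut with CRISPR/Cas9 beside a homology-directed repair plasmid, clones were selected with puromycin, and the cassette was removed with Cre. GALNT3/T6 KO clones came from GALNT3 KO cells that received lentiviral pLKO.1 shRNA against GALNT6. The shRNA and its viral delivery therefore go with the group and cannot be told apart from loss of GALNT6. The methods also describe control clones that carry pLKO.1 with a scramble sequence. They do not state whether the Ctrl of the GALNT3/T6 KO arrays came from such clones. By the labels, every array had Ctrl RNA in Cy3 and the RNA of the KO clone in Cy5, with no dye swap. The methods mention a reverse-color label, which does not settle whether dyes were swapped. A dye effect of a probe cannot be told apart from a KO effect in a ratio to Ctrl, while it cancels in a difference between the groups. Every value below is a log2 ratio of KO over Ctrl, unless called a log2 signal, and a gene is read from its brightest probe.

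HGF is secreted as an inactive precursor that serine proteases cut to the active form. Active HGF binds MET, a receptor tyrosine kinase known for cell scattering, motility and survival in epithelial and ovarian cancer cells. Matriptase, the product of ST14, is a membrane serine protease that can cut the precursor, and SPINT1 and SPINT2 encode Kunitz-type inhibitors of such proteases. PLAU encodes urokinase, which converts plasminogen to plasmin, and PLAUR its surface receptor. TMPRSS15 encodes enteropeptidase, known for activating trypsinogen in the duodenum.

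The 60 bases of a coding-sequence probe of HGF, MET, PLAUR and TMPRSS15 are printed, 5′ to 3′ on the strand of the gene. For HGF and MET this is not the brightest probe, from which the value of the gene is read. The HGF probe lies in the part for the first kringle of the protein and spans an intron, between 81381526 and 81386511 on chromosome 7 of hg19, minus strand. The MET probe lies in the part for the C-terminal tail, at chr7:116436073-116436132, plus strand. The PLAUR probe lies at chr19:44169498-44169557, minus strand. The TMPRSS15 probe spans an intron between 19642419 and 19647550 on chromosome 21, minus strand. Capitals mark bases 41 to 54 of that probe, counted from its 5′ end, which match the usual codon pattern around the active-site serine of serine proteases.
HGF: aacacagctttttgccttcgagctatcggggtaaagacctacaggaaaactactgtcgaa
MET: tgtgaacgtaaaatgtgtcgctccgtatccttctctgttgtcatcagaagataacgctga
PLAUR: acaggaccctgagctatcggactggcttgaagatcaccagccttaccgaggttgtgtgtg
TMPRSS15: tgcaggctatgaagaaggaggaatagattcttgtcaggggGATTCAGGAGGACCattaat

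The labels were checked before the members. GALNT3, read by a single probe, did not clear background in the Ctrl or the KO channel of the GALNT3 KO arrays, so it could not check the label of that group. It stood at 4.80 and 5.08 on the GALNT3/T6 KO arrays, against their label, with both channels well above background. Those arrays are therefore called the GALNT3/T6-labelled arrays. The position of the probe relative to the CRISPR cut was not analysed here. GALNT6 stood at -0.47 and -0.38 on the GALNT3 KO arrays (adjusted p = 0.0445 against Ctrl). It stood at -0.66 and -0.69 on the GALNT3/T6-labelled arrays (adjusted p = 0.00334 against Ctrl). The pairs did not overlap, but the difference between the groups, -0.25, did not pass limma's test (adjusted p = 0.212). A fall of GALNT6 beyond that in GALNT3 KO was therefore not shown, so GALNT6 did not settle the label of the GALNT3/T6-labelled arrays. The paper reports more GALNT6 protein in its GALNT3 KO clones by Western blot, whereas the RNA on the GALNT3 KO arrays was lower than Ctrl. Of 11 ovarian carcinoma and epithelial markers, 10 were well above background in the Ctrl channel on all 4 arrays, but so were 8 of 8 fibroblast and 5 of 5 leukocyte markers, so these flags do not tell cell types apart. Between 86.9% and 93.8% of the 43376 non-control spots exceeded background clearly in a given channel, with 0 saturated spots. The number of arrays limits the precision.

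HGF was higher than Ctrl in both GALNT3 KO clones and far below Ctrl on both arrays labelled GALNT3/T6 KO. Its log2 ratios were 1.01 and 1.14 in GALNT3 KO, and -2.85 and -2.87 on the GALNT3/T6-labelled arrays. The mean was 2.11-fold above Ctrl in the former (SD 0.095 on the log2 scale, n = 2). In the latter it was 7.24-fold below Ctrl (SD 0.014 on the log2 scale, n = 2). The pairs lay on opposite sides of Ctrl and did not overlap, which the choice of HGF fixed. The log2 signal of the Ctrl channel ran from 15.41 to 15.61 over the 4 arrays, so the pairs parted in the KO channel, at 16.49 and 16.75 against 12.59 and 12.55. In bulk RNA, fewer cells with HGF and less HGF RNA per cell cannot be told apart. These are the values that chose the gene, and no test is attached to them.

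HGF has 3 probes, in a coding part and in the 3′ UTRs of a short and of the full-length transcript. The brightest lies in the 3′ UTR of transcript variant 2, a short transcript with its own 3′ end, at 81372075 to 81372134 on chromosome 7. The kringle probe printed above, spotted 10 times, stood at 0.99 and 1.41 in GALNT3 KO and at -3.05 and -3.16 on the GALNT3/T6-labelled arrays. The remaining probe, in the 3′ UTR of the full-length transcript at 81329009 to 81329068, stood at 0.59 and 0.25 in GALNT3 KO. On the GALNT3/T6-labelled arrays it stood at -4.31 and -4.55, a mean 21.5-fold below Ctrl. All 3 probes kept the direction of the gene on all 4 arrays. The full-length probe lay below the brightest by 0.66 in GALNT3 KO and by 1.57 on the GALNT3/T6-labelled arrays on average, and on every array. Of 7912 genes with at least 2 probes tested, 9.69% had a range of probe means at least as wide as that of HGF, 1.57, on the GALNT3/T6-labelled arrays. In GALNT3 KO, 10.8% of the 7912 genes had a range at least as wide as that of HGF, 0.79. The rise of HGF there was 1.34-fold by the full-length probe, 2.11-fold by the short-transcript probe and 2.30-fold by the kringle probe.

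MET, the receptor of HGF, was higher than Ctrl on the GALNT3/T6-labelled arrays, where its ligand was low. Its log2 ratios were 1.10 and 1.22 there, and 0.25 and 0.23 in GALNT3 KO. The mean on the GALNT3/T6-labelled arrays was 2.23-fold above Ctrl (log2 1.16, standard error 0.08, adjusted p = 0.000751 from limma). In GALNT3 KO the mean of 0.24 did not pass the test (adjusted p = 0.119). The groups did not overlap, and their difference of 0.92 passed limma's test (adjusted p = 0.0075). It no longer passed without GALNT3 KO replicate 1 (adjusted p = 0.093) or replicate 2 (adjusted p = 0.0945).

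The size of the MET change depended on the probe. The C-terminal coding probe printed above stood at 1.31 and 1.76 on the GALNT3/T6-labelled arrays, and at 0.33 and 0.51 in GALNT3 KO. The start of the brightest probe lies 121 bases after the start of this one, at 116436194 to 116436253 on chromosome 7, at the start of the 3′ UTR. Another probe, spotted 10 times, lies in the distal 3′ UTR at 116438290 to 116438349. It stood at 5.50 and 5.88 on the GALNT3/T6-labelled arrays, a mean 51.5-fold above Ctrl, and at -0.043 and -0.13 in GALNT3 KO. Its log2 signal in the KO channel was 14.59 and 15.01 on the former arrays and 8.60 and 8.37 on the latter. The spots of this probe varied with an SD of 0.43 and 0.42 around the former values. On its own, each of the 3 probes passed the test on the GALNT3/T6-labelled arrays, where 24.2% of 38195 probes were called higher. The distal probe exceeded the brightest by 4.53 on the log2 scale, and 13 of the 7912 genes, 0.164%, MET included, had a range of probe means that wide, against a median of 0.53. In GALNT3 KO the same difference was -0.33. The mean of all probes put MET at 2.79 on the GALNT3/T6-labelled arrays, and Agilent's own log ratio, by which the distal probe is the brightest, at 5.75. What part of this gap is MET transcript was not tested.

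MST1R encodes the receptor of macrophage-stimulating protein, the product of MST1. MST1R stood at -0.18 and -0.0039 in GALNT3 KO and at -0.35 and -0.073 on the GALNT3/T6-labelled arrays. The values of the groups overlapped, and none of its comparisons passed (adjusted p = 0.567, 0.169 and, for the difference, 0.69, from limma). The 95% interval of the difference ran from -0.52 to 0.28. MST1 was not called either, at -0.18, -0.40, 0.55 and -0.30 in the same order of arrays. It has near-identical copies in the genome, so its probe may read more than 1 gene.

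TMPRSS15 was the member farthest above Ctrl in GALNT3 KO, at 5.39 and 4.49, a mean 30.7-fold above Ctrl. On the GALNT3/T6-labelled arrays it stood at -0.33 and -0.60. The pairs did not overlap, but TMPRSS15 was known for this pattern and is given with no test. The log2 signal in the KO channel was 14.80 and 15.20 in GALNT3 KO, against 8.34 and 8.06 on the GALNT3/T6-labelled arrays. The Ctrl channel was also brighter beside the bright KO channel, at 9.42 and 10.71 against 8.67 and 8.66. What part of the Ctrl signal belongs to Ctrl RNA was not tested. Its single probe is the one printed above.

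ST14 stood close to Ctrl in both groups. It stood at 0.15 and 0.14 in GALNT3 KO (adjusted p = 0.256) and at 0.24 and 0.32 on the GALNT3/T6-labelled arrays (adjusted p = 0.0422 from limma). The latter mean is a 1.21-fold difference from Ctrl. Its call was lost under 10 of 16 alternatives, with adjusted p-values from 0.0342 to 0.984, and the mean was -0.0026 with Agilent's own log ratio. Between the groups the ratio differed by 0.14 (adjusted p = 0.503), with a 95% interval from -0.16 to 0.43.

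PLAU and PLAUR rose together on the GALNT3/T6-labelled arrays. Urokinase, PLAU, read by 10 spots of a 3′ UTR probe at 75677050 to 75677109 on chromosome 10, stood at 3.43 and 3.87 there. In GALNT3 KO it stood at 0.052 and 0.13. The mean on the former arrays was 12.6-fold above Ctrl (log2 3.65, standard error 0.13, adjusted p = 0.000142 from limma). The groups differed by 3.56 (adjusted p = 0.000732), while GALNT3 KO itself did not pass (adjusted p = 0.628). The spots of this probe varied on an array with an SD of 0.18 to 0.29.

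PLAUR was the only one of the 6 tested members called in GALNT3 KO, and the only one called in opposite directions. It stood at -1.31 and -1.09 in GALNT3 KO, a mean 2.30-fold below Ctrl (log2 -1.20, standard error 0.10, adjusted p = 0.0131 from limma). On the GALNT3/T6-labelled arrays it stood at 1.26 and 1.37, a mean 2.49-fold above Ctrl (adjusted p = 0.000811). The groups differed by 2.52 (adjusted p = 0.000836). The KO channel carried this difference, at log2 signals of 7.41 and 7.81 against 10.47 and 10.47, while the Ctrl channel ran from 8.72 to 9.21. The call in GALNT3 KO was lost without replicate 1 (adjusted p = 0.282) or replicate 2 (adjusted p = 0.376), and with the replicate block (adjusted p = 0.0621). PLAUR and PLAU thus moved the same way on the GALNT3/T6-labelled arrays, while in GALNT3 KO only the receptor was called.

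Of the inhibitors of the activating proteases, SPINT2 rose on the GALNT3/T6-labelled arrays. SPINT2 stood at 2.97 and 3.28 there and at 0.14 and 0.51 in GALNT3 KO. Its mean on the former arrays was 8.70-fold above Ctrl (log2 3.12, standard error 0.14, adjusted p = 0.000224 from limma), and the groups differed by 2.80 (adjusted p = 0.00142). Its Ctrl channel was brighter by 1.38 on the log2 scale on those arrays, against 0.86 for PLAU, 0.34 for PLAUR and -0.13 for the brightest MET probe. SPINT1 stood at 0.90 and 1.72 on the GALNT3/T6-labelled arrays, a log2 mean of 1.31, with no test. In GALNT3 KO, at 0.11 and 0.17, neither channel was well above background, and the Ctrl channel of GALNT3/T6 KO replicate 1 was not either, so these ratios are not exact. The KO channels of the groups differed at least 2.05-fold, a lower bound from log2 signals per channel after loess and Aquantile. It compares the same channel on different arrays, so it is open to differences between arrays. Agilent's own log ratio gave SPINT1 a mean of 2.17 on the GALNT3/T6-labelled arrays.

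Of the 6 tested members, 0 were called higher and 1 lower in GALNT3 KO, where limma called 4.79% of all genes higher and 6.44% lower. On the GALNT3/T6-labelled arrays, 5 were higher and 0 lower, beside 24.8% higher and 23.1% lower over all genes. In the difference between the groups, 4 were higher and 0 lower, beside 11.9% of all genes in each direction. Their median log2 ratio was 0.12 in GALNT3 KO and 1.24 on the GALNT3/T6-labelled arrays, where the medians of all genes were 0.023 and 0.032. The GALNT3/T6-labelled pair exceeded the GALNT3 KO pair without overlap for 5 of the 6, and so they did for 30.0% of all genes. The 6 genes were picked with results known, so these counts describe them only.

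**Figure D1:**
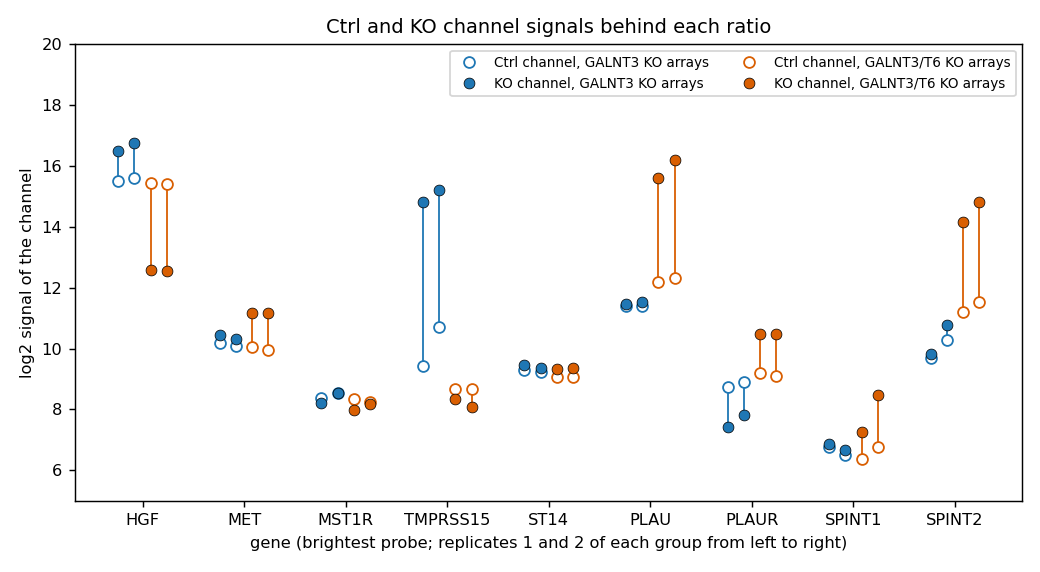
Log2 signal of each channel (y axis) for the brightest probe of each gene (x axis), replicates 1 and 2 of each group from left to right. Open circles are the Ctrl channel and filled circles the KO channel of the same array, blue GALNT3 KO and orange GALNT3/T6 KO. The KO channel of HGF falls from 16.49 and 16.75 to 12.59 and 12.55 between the groups, while for SPINT2, PLAU and TMPRSS15 the Ctrl channel also differs between the arrays. Levels are not comparable between genes.

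Several genes outside the set followed HGF over the 4 arrays. By Euclidean distance of the 4 log2 ratios, the nearest of all genes tested were HTR2B (0.27), CT83 (0.33), GALNT4 (0.37), ESPNL (0.50) and DNM3 (0.54). HTR2B encodes a serotonin receptor, GALNT4 another enzyme of the GALNT family and DNM3 a dynamin. Their means ran from 0.77 to 1.07 in GALNT3 KO and from -3.05 to -2.62 on the GALNT3/T6-labelled arrays. They were chosen for this likeness, over 4 arrays, and carry no test.

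The wider pathway was read from lists of 88 genes beside the members, of which 83 were tested. In GALNT3 KO, 3 were higher and 4 lower, beside 4.79% and 6.44% of all genes. With either GALNT3 KO array left out, no gene named below passed in GALNT3 KO (lowest adjusted p = 0.282). Of the same genes, 29 were higher and 14 lower on the GALNT3/T6-labelled arrays, with a median of 0.19. Over all genes tested, 24.8% were higher and 23.1% lower there. In the difference between the groups, 18 were higher and 6 lower, beside 11.9% of all genes in each direction. Leaving out each array in turn moved these counts to between 3 and 28 higher and between 0 and 13 lower.

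Of 11 tested genes of plasminogen activation other than PLAU and PLAUR, 8 rose and none fell on the GALNT3/T6-labelled arrays. Their median was 0.90, and over all genes tested 24.8% were higher and 23.1% lower there. In GALNT3 KO, where PLAUR fell, 1 of the 11 rose and none fell, beside 4.79% higher and 6.44% lower over all genes. The median of the 11 was 0.066 there. S100A10, a plasminogen-binding partner of annexin A2 at the cell surface, rose in both, by 2.50 in GALNT3 KO (adjusted p = 0.0056) and by 5.81 on the GALNT3/T6-labelled arrays (adjusted p = 9.08e-05). SERPINE2, which inhibits urokinase and other serine proteases, rose by 1.85 on the latter arrays (adjusted p = 0.000258). Its mean of 0.33 in GALNT3 KO did not pass (adjusted p = 0.0717).

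Few of the other proteases that can activate the precursors of HGF or macrophage-stimulating protein were called. Of 10 tested, 0 were called in GALNT3 KO, where TMPRSS13 stood highest at 0.46 (adjusted p = 0.13 from limma). Of the same 10, 1 rose and 1 fell on the GALNT3/T6-labelled arrays, beside 24.8% and 23.1% of all genes. Coagulation factor F12 fell by 1.60 there (adjusted p = 0.00692), at -2.10 and -1.10. Prostasin, PRSS8, stood at 0.72 and 0.26 (mean 0.49, adjusted p = 0.0367), a call lost under 7 of 16 alternatives, with adjusted p-values up to 0.151 (without GALNT3/T6 KO replicate 1). Among 12 other type II transmembrane serine proteases, the family of ST14 and TMPRSS15, CORIN fell in both groups, by 0.78 (adjusted p = 0.0202) and by 0.97 (adjusted p = 0.00115). The call in GALNT3 KO was lost under 5 of 16 alternatives, among them Agilent's log ratio (adjusted p = 0.053) and the replicate block (adjusted p = 0.0881). TMPRSS5 rose by 1.29 on the GALNT3/T6-labelled arrays (adjusted p = 0.00214). No other gene of this list was called in either group. Of the trypsinogens that enteropeptidase cleaves, PRSS3 stood at 0.19 in GALNT3 KO (adjusted p = 0.423), where TMPRSS15 was high, and rose by 0.94 on the GALNT3/T6-labelled arrays (adjusted p = 0.00947). PRSS3 shares sequence with other trypsinogens, so its probe may read more than 1 gene.

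In GALNT3 KO, none of 12 membrane partners of MET was called, beside 4.79% higher and 6.44% lower over all genes. On the GALNT3/T6-labelled arrays, 7 of 12 were called higher and 1 of 12 lower, beside 24.8% and 23.1% of all genes. CD44, a hyaluronan receptor whose variant forms can act as MET co-receptor, stood at 5.24 and 5.67, a mean of 5.46 (adjusted p = 9.08e-05), against 0.066 and 0.021 in GALNT3 KO. The laminin-binding integrin ITGA6 rose by 2.44 (adjusted p = 0.000515) and EGFR by 1.43 (adjusted p = 0.000653). ERBB2 stood at -0.44 in GALNT3 KO (adjusted p = 0.111), the largest mean in size of this list there, and fell by 0.97 on the GALNT3/T6-labelled arrays (adjusted p = 0.00666). Its other probe stood at -0.044 on the latter arrays.

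Of 23 adaptors and kinases that relay the MET signal, 2 were higher, 10 lower and 11 not called on the GALNT3/T6-labelled arrays, with a median of -0.16, beside 24.8% higher and 23.1% lower over all genes. PIK3R1, the regulatory subunit of PI3-kinase, fell by 2.60 (adjusted p = 0.000856), though its other probe stood at -0.33. CRKL fell by 1.48 (adjusted p = 0.002), with its other probe at -0.64, and PIK3CA fell by 1.12 (adjusted p = 0.00407). In GALNT3 KO, the adaptor SHC1 rose by 0.80 (adjusted p = 0.0382), a call lost under 6 of 16 alternatives. These genes act downstream of many receptors besides MET.

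Genes of MET turnover and dephosphorylation rose in 9 of 15 and fell in 1 of 15 on the GALNT3/T6-labelled arrays. Over all genes tested, 24.8% were higher and 23.1% lower there. The phosphatases PTPN1, PTPRF and PTPRJ, which can act on MET, stood at 2.60 (adjusted p = 0.00013), 2.12 (adjusted p = 0.00136) and 1.62 (adjusted p = 0.000712). The probes of PTPRF ran from 0.23 to 2.12 and those of PTPRJ from 0.30 to 1.83. In GALNT3 KO the ubiquitin ligase CBLB fell by 2.24 (adjusted p = 0.00539), though its other probe stood at -0.36. PTPN1 and PTPN2 stood at 0.44 (adjusted p = 0.0491) and -0.45 (adjusted p = 0.0499) in GALNT3 KO, calls lost under 6 and 8 of 16 alternatives.

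**Figure D2:**
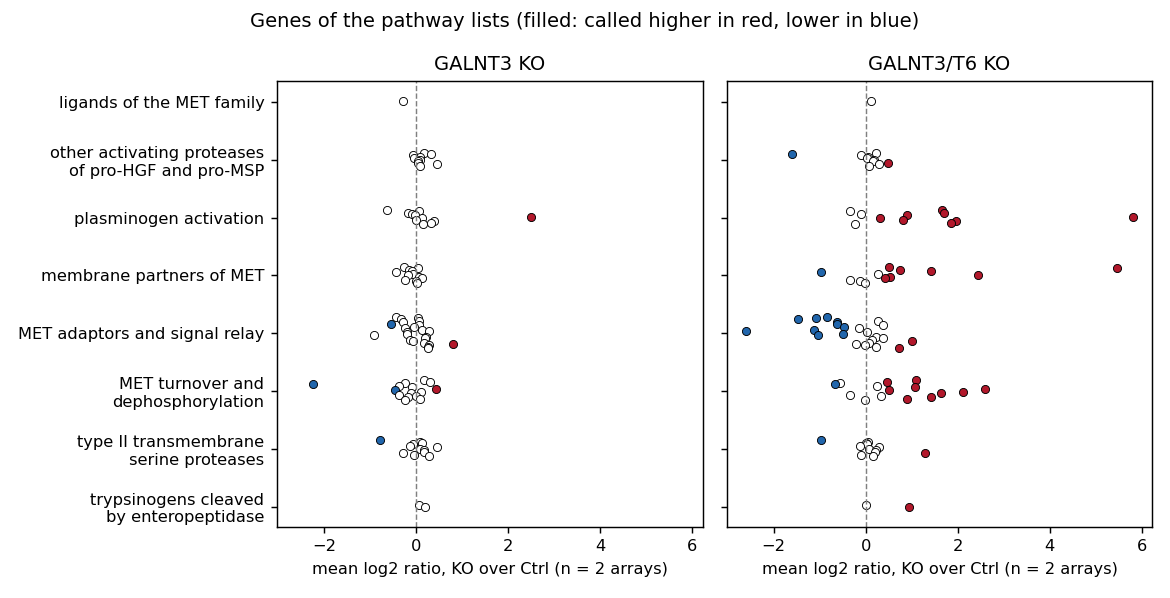
Mean log2 ratio of KO over Ctrl (x axis, n = 2 arrays) of each tested gene in each pathway list (y axis), in GALNT3 KO (left) and on the GALNT3/T6-labelled arrays (right), the 9 members left out. Points are genes, filled red where called higher and blue where called lower. Plasminogen activation, MET partners and MET turnover hold mostly red calls on the right, while MET adaptors hold 10 blue and 2 red.

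Epithelial markers moved with the same arrays. On the GALNT3/T6-labelled arrays, 24.8% of all genes were called higher than Ctrl and 23.1% lower. Of 11 ovarian carcinoma and epithelial markers, 8 were higher there and none lower. KRT7, among them, passed the background filter through these arrays alone. The log2 of their summed signal was 19.86 and 19.77 in the KO channel there, 13.90 and 13.67 in the KO channel of GALNT3 KO, and 13.37 to 15.57 in the Ctrl channel. Of 4 mesothelial markers, 3 were higher, with LRRN4 likewise passing through these arrays alone, while of 8 fibroblast markers 3 were higher and 4 lower. Of 5 leukocyte markers, 1 was higher and 1 lower, and of 3 endothelial markers tested 2 were higher. In GALNT3 KO, 0 epithelial, 0 mesothelial and 0 leukocyte markers were called. Of the 8 fibroblast markers, 1 was higher and 1 lower there, and of the 3 endothelial markers tested 1 was higher. Over all genes, 4.79% were called higher and 6.44% lower in GALNT3 KO. The part of the cell types behind these markers in the rise of SPINT1, SPINT2, MET and PLAU was not tested.

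The neighbours of HGF, MET and TMPRSS15 were read by their hg19 probe positions, as the 3 nearest tested genes on each side. On the GALNT3/T6-labelled arrays, 5 of 6 neighbours of MET were called higher and 1 lower, beside 24.8% and 23.1% of all genes. Among the former, THC2540257 passed the background filter through these arrays alone. Of the 6 neighbours of HGF, 2 were higher and 1 lower, near those shares, and of the 6 of TMPRSS15, 3 were higher and 0 lower. The caveolin genes CAV2 and CAV1, 296 and 235 kb before the MET probe, stood at 2.85 and 3.60 there, and at 0.0030 and -0.58 in GALNT3 KO. CAPZA2, 122 kb after it, stood at 2.01 and 0.78, and ST7-AS1, 157 kb after it, at a mean of -0.85. Around HGF, the fatty acid receptor CD36 was lower in both groups, at -2.89 and -3.98, and at -1.64 and -2.13 with Agilent's log ratio. CACNA2D1, the nearest gene at 207 kb, stood at 0.45 in GALNT3 KO (adjusted p = 0.0617) and -0.24 on the GALNT3/T6-labelled arrays (adjusted p = 0.119). SEMA3C and PCLO, further out on either side, stood at 1.60 and 1.41 on the latter arrays, PCLO at 0.69 by the mean of all its probes. Around TMPRSS15, CHODL, whose probe lies 5.42 kb away, stood at -0.36 in GALNT3 KO (adjusted p = 0.271) beside a TMPRSS15 value of 4.94, and C21orf91 at 0.30 (adjusted p = 0.0767). BTG3 stood at 1.44 on the GALNT3/T6-labelled arrays, and at 0.30 by the mean of all its probes. Of the 6 neighbours of TMPRSS15, none was called in GALNT3 KO.

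RefSeq promoter windows of GRCh38.p14, 250 bases before to 50 after a start, were given for 7 of the 9 members in 9 windows, with ST14 and SPINT2 not among them. The letters TGANTCA, the AP-1 motif, are in 3 of these windows, 1 each of PLAUR, TMPRSS15 and SPINT1, and in 7.71% of all 35116 windows. GGGCGG, the GC box, on either strand is in windows of MET, MST1R, SPINT1 and PLAU, and in 45.0% of all windows. The HGF window holds neither. The 250 bases before the PLAUR start are printed because PLAUR was called in opposite directions in the groups. They lie at chr19:43670170-43670419 on the minus strand, and capitals mark the AP-1 letters, which begin 186 bases before the start.
PLAUR promoter: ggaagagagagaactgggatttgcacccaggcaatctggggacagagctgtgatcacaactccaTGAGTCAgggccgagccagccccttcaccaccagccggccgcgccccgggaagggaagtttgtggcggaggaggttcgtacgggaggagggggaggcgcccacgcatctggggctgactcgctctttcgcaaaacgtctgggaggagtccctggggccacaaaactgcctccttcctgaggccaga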

How the data were processed

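Total RNA of KO clones and Ctrl cells was compared on 4 Agilent 2-colour arrays of 1 slide. The authors extracted spot intensities with Agilent Feature Extraction (8.5.1.1 per the labels, another version in the file headers) and deposited them with a log10 ratio of red over green, and the deposited value table holds that log10 ratio. Mean intensities were background-corrected with normexp (offset 50) and loess-normalized within each array, control spots left out, in limma 3.58.1 with R 4.3.3. Spots flagged as outliers were dropped and spots of 1 probe averaged. A probe was kept if over 0.5 of its spots exceeded background (Agilent's flag) in either channel, on both arrays of a group, and the brightest kept probe stood for its gene (27196 genes). limma fitted all 4 arrays with a mean for each group. Calls needed an adjusted p (Benjamini-Hochberg) up to 0.05. Replicates are clones, and no Ctrl sample was hybridized against Ctrl, so the spread of Ctrl is left out. The members and lists were chosen with earlier results of these data known. Named were every member probe, MST1, up to 3 called genes of each list and group with the largest mean, the 5 genes nearest HGF, neighbours of HGF, MET and TMPRSS15, and both targeted genes. The fit was tested on simulated data. Figures were drawn with matplotlib 3.10.9. Some genes that this rule names are not reported here.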

Additional observations from a re-analysis of the deposited data

Results flagged for a closer look

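The log2 ratio on the arrays labelled GALNT3/T6 KO differed from that in GALNT3 KO, by limma's test of the difference itself, for 4 of the 6 tested members, beside 11.9% of all genes higher and 11.9% lower. The differences were 0.92 for MET, 2.80 for SPINT2, 3.56 for PLAU and 2.52 for PLAUR. With 2 arrays in a group, no array could be tested for standing apart.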

How the results depend on the processing

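The rise of HGF in GALNT3 KO and its fall on the GALNT3/T6-labelled arrays kept their direction under all 16 alternatives. HGF was chosen by these directions. Several alternatives, such as the replicate block, leave a group mean unchanged by construction, so this count is no measure of support. The HGF means moved by more than the spread of the clones with Agilent's log ratio and the deposited table (0.83 and -3.23 in each). They also did with the mean of all probes (0.90 and -3.46) and median centring (1.18 and -3.01). The count of members called lower in GALNT3 KO, 1, was 0 with the replicate block, and 0 to 1 with each array left out. Of 83 pathway genes in GALNT3 KO, 1 was higher and 1 lower with the deposited table, Agilent's log ratio and the replicate block, and 1 was higher with median centring. With the spread from the arrays of the group alone, 9 were higher and 11 lower there, and 19 were higher on the GALNT3/T6-labelled arrays. Between the groups, 3 were lower with median centring. Leaving out each array gave 0 to 9 higher and 0 to 11 lower pathway genes in GALNT3 KO, 19 to 30 higher on the GALNT3/T6-labelled arrays, and 3 to 28 higher and 0 to 13 lower between the groups.

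Several values turned sign, all of them uncalled except ST14 on the GALNT3/T6-labelled arrays (0.28, adjusted p = 0.0422 from limma). With Agilent's log ratio or the deposited table, MET (-0.095), ST14 (-0.049), SPINT1 (-0.23), PIK3CA (-0.031), PTPRF (-0.078) and MST1R (0.20) turned in GALNT3 KO. ST14 (-0.0026) and MST1R (0.018) turned on the GALNT3/T6-labelled arrays. With median centring, EGFR (0.0033), PIK3CA (-0.16), PLAU (-0.12) and PTPRF (-0.13) turned in GALNT3 KO, and PTPRF also with the mean of all probes (-0.12). Leaving out each array, MST1R between the groups ran from -0.26 to 0.018, PRSS8 and PTPRJ in GALNT3 KO from -0.014 to 0.076 and from -0.27 to 0.027, and SHC1 on the GALNT3/T6-labelled arrays from -0.45 to 0.029. The cause was not tested.

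With Agilent's log ratio MET was read from its distal probe, the brightest there, at 5.75 on the GALNT3/T6-labelled arrays. Same-numbered arrays share only a number, and the replicate block lowered the genes called in GALNT3 KO from 3053 to 82. A block on the crossed numbers, chosen after seeing the data because same-numbered arrays deviated in opposite ways (r = -0.24), gave 3677. Leaving out an array leaves a lone clone, which is assumed to vary like the other group. Clones, not depth, limit precision, and SPINT1 is near background.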
